A study of Mus musculus with 16 samples.

Results

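A set of 10 genes that mouse embryos express from only the maternal or only the paternal chromosome, and that are known for their part in fetal growth, were followed through single-cell transcriptomes of mouse mammary tumours. The genes were Igf2, H19, Peg3, Meg3, Kcnq1ot1, Dlk1, Mest, Cdkn1c, Plagl1 and Peg10, 10 of 22463 genes with at least 1 unique molecular identifier (UMI, a tag that marks 1 captured transcript) in a kept cell. They were chosen by name with earlier results of these data known, so that their levels by model and cell class and the co-detection of Igf2 and H19 are given as descriptions without tests. Drop-seq, in which a cell and a bead that carries a barcode share a droplet and the 3′ end of each captured transcript is read, had been run on untreated end-stage tumours of the mammary gland. WB1P tumours came from WapCre;Brca1F/F;Trp53F/F mice, and WB1P-Myc tumours from WapCre;Brca1F/F;Trp53F/F;Myc mice, in which Cre also switches on a Myc construct placed in the Col1a1 locus. In both models Cre is driven by the Wap promoter, which is active in mammary epithelium, and both therefore lack Brca1 and Trp53 in the cells where Cre acted. By the labels, the sorted live cells of each model were 1 suspension, from which 4 droplet fractions were made into libraries. The fractions are technical, a model is counted here as 1 sample, and the separate droplet runs and the models cannot be told apart.

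Imprinted genes keep a DNA methylation mark from the egg or the sperm, and the marked regions switch neighbouring genes on or off according to the parent of origin. Igf2, a fetal growth factor, and H19, a noncoding RNA, share enhancers and a control region, and are read from opposite parental chromosomes. Most genes of this group are abundant in the embryo and placenta and fall after birth, and several have been reported to return in tumours.

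The group includes 3 neighbourhoods. On chromosome 7 (mouse build GRCm38, GENCODE M21 annotation), H19 (chr7:142575529-142578143) lies 72.6 kb from Igf2 (chr7:142650766-142666816), both on the minus strand. Kcnq1ot1 (chr7:143203458-143296549), an antisense RNA that silences its neighbours on the paternal chromosome, lies 162 kb from Cdkn1c (chr7:143458339-143461050). On chromosome 12, Dlk1 (chr12:109452823-109463336) lies 77.7 kb from the noncoding RNA gene Meg3 (chr12:109541001-109571726). The other 4 genes stand apart from these, with Peg3 on chromosome 7 (chr7:6703892-6730431), Mest (chr6:30723547-30748465) and Peg10 (chr6:4747306-4760517) on chromosome 6, and Plagl1 on chromosome 10 (chr10:13060504-13131694).

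H19, Igf2 and Mest also carry microRNAs, which Drop-seq does not count. Their mature sequences (RefSeq, GRCm38.p6) are given because H19 and Igf2 had the highest ratios between the models in all kept cells and Mest had opposite directions in epithelial-like and fibroblast-like cells. The seed, bases 2 to 8, is in capitals. The miR-675 pair lies in the H19 exon, the miR-483 pair in an Igf2 intron and the miR-335 pair in a Mest intron, and no seed was shared among them. Meg3 holds further microRNAs, which are not shown.
mmu-miR-675-5p: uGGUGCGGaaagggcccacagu
mmu-miR-675-3p: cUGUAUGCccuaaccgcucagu
mmu-miR-483-5p: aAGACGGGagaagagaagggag
mmu-miR-483-3p: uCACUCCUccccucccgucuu
mmu-miR-335-5p: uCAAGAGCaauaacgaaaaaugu
mmu-miR-335-3p: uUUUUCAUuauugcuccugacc

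After the filters, 1307 WB1P and 3491 WB1P-Myc cells remained, with a median of 1724 and 2359 UMIs. WB1P fraction 1 stood apart, with 65 cells and 94408 UMIs where the other fractions had 394 to 950 cells. Clustering without the 10 genes and without 41 other imprinted genes gave epithelial-like (657 WB1P and 788 WB1P-Myc cells), fibroblast-like (217 and 274), macrophage-like (377 and 691) and endothelial-like cells (38 and 73), 976 Schwann-like cells in WB1P-Myc alone, and an unnamed shallow cluster of 18 and 689 cells with a median of 1163 UMIs. The epithelial-like class was cluster 5 in WB1P and cluster 3 in WB1P-Myc, so that the models shared the name but hardly a cluster. In epithelial-like cells the 12 epithelial markers summed to 7271 CPM (UMIs of a gene scaled to a total of 1000000) in WB1P and 3669 CPM in WB1P-Myc, and to 162 to 411 CPM in the fibroblast-like, macrophage-like, endothelial-like and Schwann-like cells. Cluster 3 had 6 leading epithelial markers, but no marker of any type was among its 10 top genes, which included Igf2 and H19. Myc had 191 to 215 CPM in the 4 WB1P-Myc fractions and 33.6 to 94.0 CPM in the 4 WB1P fractions of epithelial-like cells. In the name of the construct's allele, IRES-Luc follows Myc, and only the end of each transcript is read. Whether these UMIs came from the construct was therefore not shown.

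In all kept cells, Igf2 and H19 had the highest pooled ratios between models. Igf2 had 0, 2.65, 0.983 and 0.907 CPM in WB1P fractions 1 to 4, from 5 UMIs in 4 cells. In WB1P-Myc it had 124, 123, 177 and 84.7 CPM, from 1514 UMIs in 518 cells. All WB1P-Myc fractions lay above all WB1P fractions, and the pooled levels of 1.49 and 127 CPM gave a log2 ratio of 6.41 (95% interval 5.18 to 8.03, counting error only, as for all intervals here). H19 had 63.6, 220, 164 and 110 CPM in WB1P and 1595, 1401, 1469 and 1233 CPM in WB1P-Myc. Its pooled levels of 162 and 1431 CPM gave a log2 ratio of 3.14 (3.02 to 3.27). It had at least 1 UMI in 5.13% of WB1P and 46.8% of WB1P-Myc cells.

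**Figure D1:**
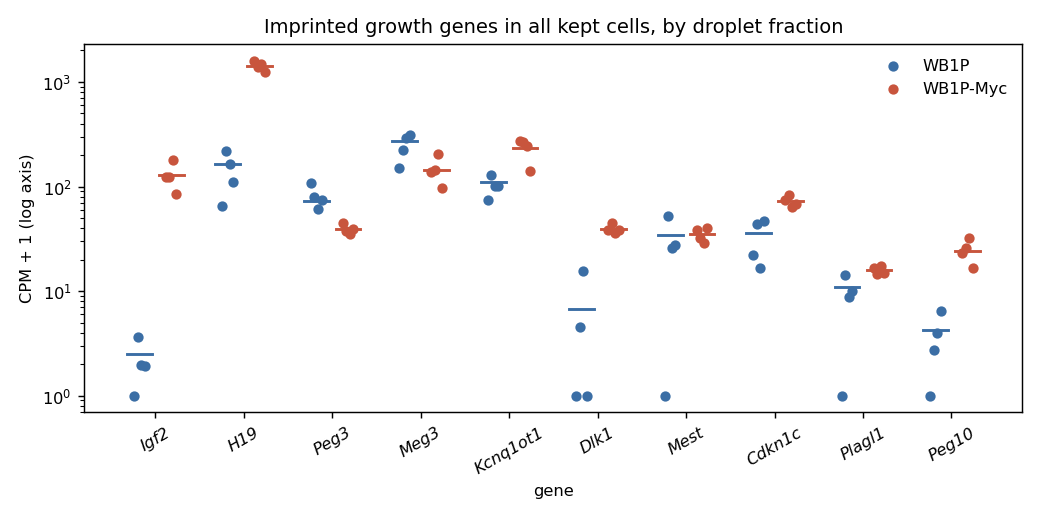
CPM + 1 on a log axis of the 10 genes in all kept cells, with a point for each of 4 droplet fractions per model and a line at the pooled level. The fractions of the models lie apart for Igf2 and H19, with every WB1P-Myc fraction of H19 at 1233 CPM or more, and overlap for Mest and Meg3.

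A gene was counted as higher or lower in WB1P-Myc when it had at least 50 UMIs over both models, a pooled ratio of at least 2-fold, and no overlap between the fractions of the models. Of the 10 members, 6 were higher (Igf2, H19, Kcnq1ot1, Dlk1, Cdkn1c and Peg10), against 10.7% of the 12234 genes with enough UMIs. None was lower, against 5.53% of those genes. The median log2 ratio of all these genes was 0.04.

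Among the growth factor-like proteins, Dlk1, a membrane protein of the Notch ligand family, followed Igf2. It had 0, 3.53, 14.7 and 0 CPM in the WB1P fractions and 37.4, 44.2, 35 and 37.2 CPM in WB1P-Myc. The pooled log2 ratio was 2.76 (2.10 to 3.51), and it was 4.49 without WB1P fraction 3, which held most of the 19 WB1P UMIs. Among the other noncoding RNAs, Kcnq1ot1 had 74.1, 127, 99.3 and 101 CPM in WB1P and 274, 268, 242 and 139 CPM in WB1P-Myc, a log2 ratio of 1.11 (0.95 to 1.27). Without the unnamed shallow cluster, in which Kcnq1ot1 was among the top genes, the ratio was 0.85 and no longer past 2-fold. As an alternative added after seeing the data, the level in barcodes under 450 genes of the same model was taken as free RNA. It was subtracted at an assumed 10% of the UMIs, and the Kcnq1ot1 ratio was then 0.02. That share was not measured, and a limit to it is given with the macrophage-like cells below. Meg3 had the opposite direction, with 148, 221, 288 and 311 CPM in WB1P and 136, 142, 203 and 95.7 CPM in WB1P-Myc. Its fractions overlapped between models, at a log2 ratio of -0.91 (-1.02 to -0.79).

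Cdkn1c and Plagl1 are known to restrain cell division. Cdkn1c, which encodes the cell cycle inhibitor p57, had 21.2, 43.2, 15.7 and 45.4 CPM in WB1P and 73.1, 81.3, 62.1 and 67.4 CPM in WB1P-Myc. Its log2 ratio of 1.03 (0.75 to 1.32) was just past 2-fold and fell to 0.72 without WB1P fraction 3. Plagl1, a zinc finger factor, had 0 to 13.2 CPM in the WB1P fractions and 13.7 to 16.3 CPM in the WB1P-Myc fractions, a log2 ratio of 0.60 (0.05 to 1.18) under the 2-fold limit. Peg3, another zinc finger protein, was the clearest case of a lower level in WB1P-Myc, with 60.0 to 106 CPM in the WB1P and 34.3 to 44 CPM in the WB1P-Myc fractions, which did not overlap. Its log2 ratio of -0.90 (-1.13 to -0.67) did not reach 2-fold either.

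Of the other 2 genes, Peg10, which derives from a retrotransposon and is needed in the placenta, had 0 to 5.44 CPM in the WB1P and 15.6 to 31.1 CPM in the WB1P-Myc fractions. The log2 ratio was 2.82 (1.96 to 3.84), from 11 UMIs against 278. Mest, which encodes a hydrolase-like protein, had 33.5 and 34.1 CPM, a log2 ratio of 0.03 (-0.28 to 0.34). Mest overlaps exons of Copg2 on the other strand, which had 235 UMIs in these cells. The use of strand in the counting is not stated, so reads of such a pair could not be told apart, and the same holds for Igf2 and its antisense gene Igf2os, which had 7 UMIs.

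Cell classes differ in number between the models, so the levels were next compared within classes. In epithelial-like cells 9 members had enough UMIs, of which 7 were higher in WB1P-Myc, against 11.6% of 8985 genes, and 0 were lower, against 11.7%. The 7 genes were Igf2, H19, Kcnq1ot1, Dlk1, Mest, Cdkn1c and Plagl1. The count was 7 without the shallow WB1P fraction 1 and 6 to 8 when any other fraction was left out. Shares over all genes are not given for these runs. Kcnq1ot1 fell under 2-fold without WB1P fraction 3 or WB1P-Myc fraction 1. With free RNA subtracted as above, Kcnq1ot1 had 79.5 CPM in WB1P and 61.8 CPM in WB1P-Myc. Its direction turned (log2 ratio -0.36) and it no longer counted as higher under that setting. The turn rests on the assumed share of free RNA. In the barcodes under 450 genes, Kcnq1ot1 had 191 CPM in WB1P and 1428 CPM in WB1P-Myc. The same share took off more Meg3 than macrophage-like and Schwann-like cells of WB1P-Myc held, as given below. The subtraction therefore cannot decide the direction of Kcnq1ot1. Meg3 joined the 7 without WB1P fraction 4.

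Igf2 had no UMI in the 2017256 UMIs of WB1P epithelial-like cells, and 271, 272, 414 and 147 CPM in the 4 WB1P-Myc fractions. Against a floor of 3 UMIs over the WB1P cells (1.49 CPM), it was 186-fold higher in WB1P-Myc (log2 of 7.54). The exact upper limit of the WB1P level was 1.83 CPM, so that a smaller ratio is possible. The 1146 UMIs lay in 302 of 788 cells, 24 of them with 10 or more and the highest with 134, and the 79 cells with most held 67.6% of the UMIs. H19 was measured in far more of these cells, at 3262, 3161, 2900.4 and 2431 CPM. It had at least 1 UMI in 560 of 788 cells and at least 10 in 262.

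H19 was not absent from WB1P epithelial-like cells, where it had 0, 236, 184 and 60.1 CPM in fractions 1 to 4. The 310 UMIs came from only 24 of 657 cells, 8 of which had 10 or more, up to 85. Few cells thus carried the WB1P level of 154 CPM, which set a log2 ratio of 4.27 (4.10 to 4.43) to the 2959 CPM of WB1P-Myc. Finer clusters, described below, split this WB1P-Myc class. H19 had 1308 CPM in the finer cluster named epithelial-like and 7741 CPM in one that could not be named, so the ratio holds for the mixed class only. Dlk1 had 3 UMIs in 1 WB1P cell and 395 in 172 WB1P-Myc cells, 1.49 against 95.3 CPM, a 64.1-fold ratio (log2 interval 4.44 to 8.29). Plagl1 had no UMI in WB1P epithelial-like cells and 27.9, 23.5, 29.5 and 22.9 CPM in the WB1P-Myc fractions. This was a ratio of 17.5-fold against the same floor, with the same exact upper limit of the WB1P level. For Igf2, Dlk1 and Plagl1 the WB1P-Myc level was therefore set against few or no WB1P molecules.

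Mest and Cdkn1c were measured in both. Mest had 0, 36.1, 7.38 and 12.0 CPM in WB1P and 72.1, 63.4, 65.0 and 84.3 CPM in WB1P-Myc, a log2 ratio of 1.92 (1.43 to 2.45). Cdkn1c had 22.4, 40.3, 16.6 and 31.5 CPM in WB1P and 114, 102, 96.5 and 103 CPM in WB1P-Myc, a log2 ratio of 1.79 (1.40 to 2.2). Every WB1P-Myc fraction was above every WB1P fraction for both genes. Kcnq1ot1 had 98.6 and 205 CPM, a log2 ratio of 1.05 (0.83 to 1.28), and Meg3 27.3 and 46.3 CPM, with fractions that overlapped since WB1P fraction 4 had 67.6 CPM. A single WB1P cell held 29 of the 55 Meg3 UMIs. Peg3 was again lower, at 92.2 and 63.2 CPM, a log2 ratio of -0.54 (-0.82 to -0.27). Peg10 had too few UMIs to be counted, with 5 and 36.

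Each cell was also thinned to 1500 UMIs, so that depth was equal, which left out the shallower cells and kept 400 of 657 WB1P and 751 of 788 WB1P-Myc epithelial-like cells. The WB1P cells held a mean of 0.323 and the WB1P-Myc cells a mean of 1.54 of the 10 genes. At least 3 of the genes were found in 2 of 400 WB1P cells (0.5%) and in 139 of 751 WB1P-Myc cells (18.5%). Fibroblast-like cells of both models held 1.42 and 1.41 genes and macrophage-like cells 0.141 and 0.34. The mean of WB1P-Myc epithelial-like cells thus lay near that of fibroblast-like cells of either model.

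**Figure D2:**
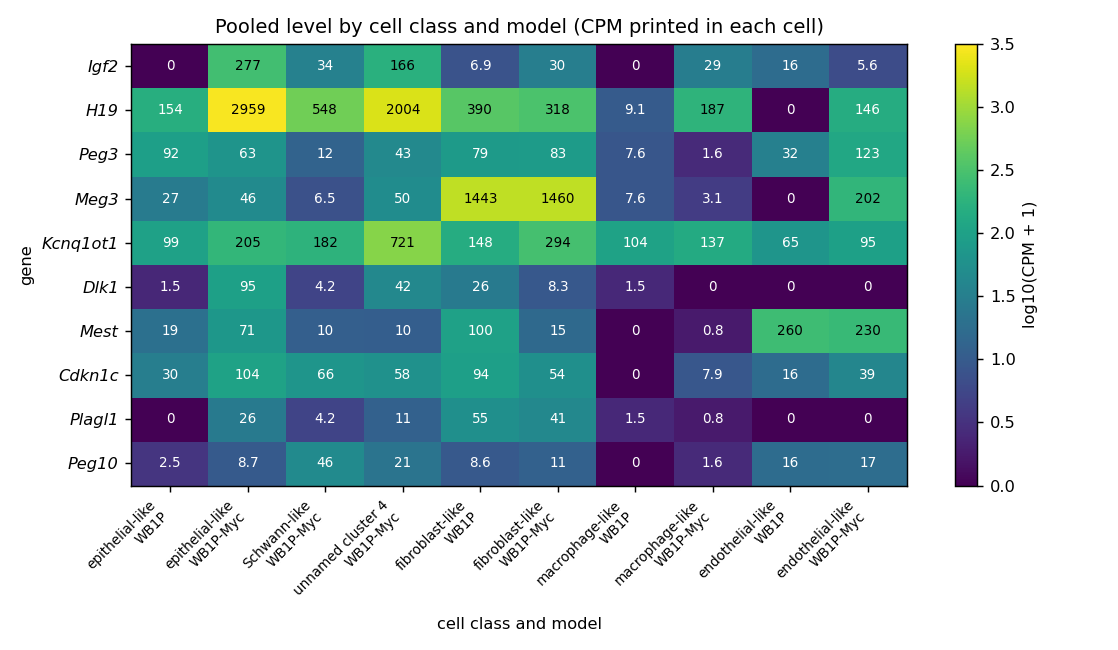
Pooled CPM of the 10 genes by cell class and model, coloured by log10(CPM + 1) with the CPM printed in each field; WB1P has no Schwann-like cells, and its 18 cells of the unnamed cluster are not drawn. Among these classes H19 is highest in WB1P-Myc epithelial-like cells (2959 CPM), a class that finer clusters split into 1308 and 7741 CPM, Meg3 in fibroblast-like cells of both models, and Mest in endothelial-like cells of both.

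In fibroblast-like cells, the stromal class in both models, the picture was different. Meg3 had 1443 CPM in WB1P and 1460.4 CPM in WB1P-Myc, a log2 ratio of 0.02 (-0.11 to 0.14), and at least 1 UMI in 69.6% and 78.1% of the cells. Plagl1 had its highest levels here, 54.9 and 41.5 CPM, with a ratio whose interval spanned 0. H19 had 390 and 318 CPM, but in WB1P it lay in 37 of 217 cells with a median of 6 UMIs in positive cells, and in WB1P-Myc in 102 of 274 cells with a median of 1. With all cells thinned to 600 UMIs, 28 of 217 (12.9%) and 38 of 274 cells (13.9%) had an H19 UMI, so that a difference in the share of cells was not shown at equal depth. The WB1P-Myc level can be set beside that of macrophage-like cells of this model, 187 CPM with a UMI in 26.2% of cells as measured. At 600 UMIs, 87 of 691 macrophage-like cells of WB1P-Myc (12.6%, 10.2 to 15.3) and 0 of 377 of WB1P had an H19 UMI. The fibroblast-like share was thus near this reference in WB1P-Myc and above it in WB1P.

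Of the 7 members with enough UMIs in fibroblast-like cells, 0 were higher in WB1P-Myc (1.87% of 4427 genes were) and 1, Mest, was lower (1.13% of the genes were). Fractions with under 20 cells of a class, such as WB1P fraction 1 here, were not used for this condition. Mest had 133, 88.2 and 77.0 CPM in WB1P fractions 2 to 4, and 0, 19, 7.94 and 30.8 CPM in WB1P-Myc. The pooled log2 ratio was -2.78 (-3.73 to -1.92), from 58 UMIs against 14. The class was not alike in all markers between the models. Fibroblast markers summed to 44384 CPM in WB1P and 46852 CPM in WB1P-Myc, but 5 adipocyte markers to 204 and 2.07 CPM. The part of this in the Mest difference was not tested. Cdkn1c had 94.4 and 53.9 CPM, a log2 ratio of -0.81 (-1.38 to -0.23), with fractions that overlapped. Kcnq1ot1 had 148 and 294 CPM, just under 2-fold at a log2 ratio of 0.99 (0.64 to 1.36). Igf2 had 6.86 and 30.1 CPM, from 4 and 29 UMIs, and its WB1P-Myc level was close to that of macrophage-like cells, given next.

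**Figure D3:**
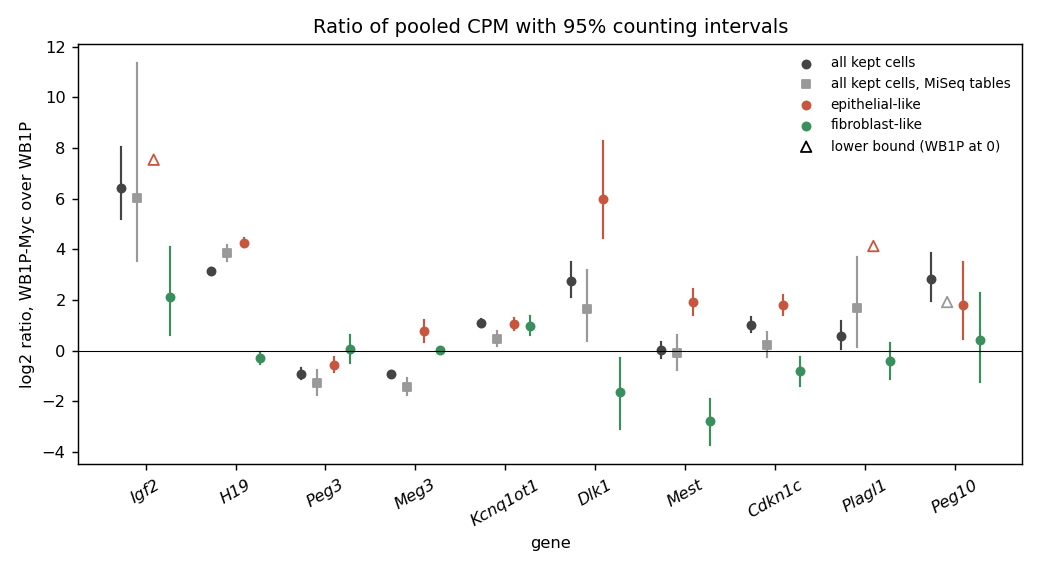
Log2 ratio of pooled CPM, WB1P-Myc over WB1P, for each gene in all kept cells (HiSeq and MiSeq tables), epithelial-like and fibroblast-like cells, with 95% counting intervals. Open triangles, marked as lower bounds, are ratios to a floor of 3 UMIs where WB1P had no UMI. Igf2 and H19 lie highest in all kept cells at 6.41 and 3.14, and Mest lies at 1.92 in the epithelial-like but at -2.78 in the fibroblast-like class.

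Macrophage-like cells, which are not known as a source of Igf2 or H19, are given as a reference level. Free RNA was not measured in empty droplets, and doublets were not called. The subtraction of the level in barcodes under 450 genes was applied to each class. In WB1P-Myc it lowered H19 to 90.0 CPM in macrophage-like, 221 CPM in fibroblast-like and 451 CPM in Schwann-like cells, and Igf2 to 17.9 CPM in macrophage-like and 22.7 CPM in Schwann-like cells. In WB1P-Myc epithelial-like cells it left H19 at 2862 CPM and Igf2 at 265 CPM, while Meg3 there came to 0 CPM. Meg3 had 471 CPM in the WB1P-Myc barcodes under 450 genes, with UMIs in 19 of 319 of them. Before subtraction it had 3.15 CPM in macrophage-like and 6.47 CPM in Schwann-like cells of this model. Thus the assumed 10% took off more Meg3 than these classes held. The 0 CPM therefore does not show that epithelial-like cells lacked Meg3. Kcnq1ot1 had 1428 CPM in the WB1P-Myc barcodes under 450 genes. Subtraction left 0 CPM of it in macrophage-like cells of this model, 38.9 CPM in Schwann-like and 61.8 CPM in epithelial-like cells. These Kcnq1ot1 levels rest on the same assumed share and have the same limit. Igf2 had 0 UMIs in 377 WB1P macrophage-like cells, with an exact upper limit of 5.57 CPM, and 29.1 CPM (20.5 to 40.1) in WB1P-Myc. H19 had 9.06 CPM in WB1P and 187 CPM (164 to 212) in WB1P-Myc, in 26.2% of the cells, at median depths of 1453 and 1494 UMIs. In Schwann-like cells Igf2 had 33.9 CPM (28.7 to 39.7), whose interval overlapped that of macrophage-like cells, so that a level above the reference was not shown. H19 had 548 CPM (526 to 570) in Schwann-like cells, above the macrophage-like level in all 4 fractions, with 632, 457, 592 and 494 CPM. In the unnamed shallow cluster, which also held epithelial, Schwann and cartilage markers at 2000.3, 1744 and 2709 CPM, Igf2 had 166 CPM and H19 2004 CPM.

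Igf2 and H19 had the same first 3 classes, WB1P-Myc epithelial-like cells, the unnamed cluster and Schwann-like cells, and from Schwann-like cells down each interval of Igf2 overlapped the next. The order of the first 2 turned with finer clusters, described next, where the cluster named epithelial-like (H19 1308 and Igf2 196 CPM) lay below unnamed finer clusters 7 (2583 and 219 CPM) and 8 (7741 and 492 CPM), although its Igf2 interval overlapped that of cluster 7. Kcnq1ot1 was highest in the unnamed cluster, with 721 CPM and 324 to 1067 CPM across fractions, where the other classes of WB1P-Myc had 95.3 to 294 CPM. Peg10 was highest in Schwann-like cells at 46.2 CPM, with 39.7, 53.9, 63.7 and 29.9 CPM in the fractions, and had 1.57 to 21.1 CPM in the other WB1P-Myc classes. Mest was highest in endothelial-like cells, at 260 CPM in 38 WB1P and 230 CPM in 73 WB1P-Myc cells, a pair of levels that could not be told apart. Peg3 was highest in WB1P-Myc endothelial-like cells at 123 CPM, but its interval overlapped those of WB1P epithelial-like and of both fibroblast-like groups. Cdkn1c was highest in WB1P-Myc epithelial-like cells at 104 CPM, and this interval overlapped that of WB1P fibroblast-like cells at 94.4 CPM.

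A finer clustering split the WB1P-Myc epithelial-like cells, 566 of 788 falling in finer cluster 2 and 211 in finer cluster 8. This pair was picked after its values were seen and is described only. Cluster 2 held 697 WB1P-Myc cells in all and was epithelial-like. Cluster 8 held 219 cells, all from WB1P-Myc and spread over the 4 fractions (63, 45, 53 and 58 cells), and could not be named. The 12 epithelial markers summed to 4447 CPM in cluster 2 and 1311 CPM in cluster 8, Schwann markers to 184 and 668 CPM, cartilage markers to 269 and 779 CPM, and fibroblast markers to 816 and 179 CPM.

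By the rule of fractions that do not overlap, H19 was higher in cluster 8, with 1453, 1461, 1189 and 1083 CPM in the fractions of cluster 2 and 8583, 8801, 7841 and 5842 CPM in those of cluster 8. Its pooled ratio was 5.92-fold, a log2 ratio of 2.57 (2.51 to 2.62), and 3.07% of 7597 genes were higher in cluster 8 by the same rule. Of the 9 members with enough UMIs, 6 were lower in cluster 8, against 8.63% of genes. These were Dlk1, Meg3, Mest, Cdkn1c, Peg3 and Plagl1. Dlk1 had 99 to 134 CPM in the fractions of cluster 2 and 0, 0, 7.89 and 17.6 CPM in those of cluster 8. Meg3, its neighbour, had 203 UMIs in cluster 2 and 1 in cluster 8, 62.3 against 0.921 CPM. Mest had 85.3 and 14.7 CPM, Cdkn1c 130 and 33.1 CPM, and Peg3 75.8 and 19.3 CPM. The summed fibroblast and epithelial markers were lower in cluster 8 too, and their part in these differences was not tested.

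Igf2 had 196 CPM in cluster 2 and 492 CPM in cluster 8, with fractions that overlapped (120 to 312 and 240 to 659 CPM). Within each of the 4 fractions, however, Igf2 was higher in cluster 8, with 160 against 585, 193 against 491, 312 against 659 and 120 against 240 CPM, and the pooled log2 ratio was 1.33 (1.16 to 1.5). There were 15.7 H19 UMIs per Igf2 UMI in cluster 8 and 6.67 in cluster 2. Macrophage-like cells had 6.43. Kcnq1ot1 had 229 and 146 CPM and Peg10 9.20 and 7.36 CPM, both with overlapping fractions. Fraction by fraction, Kcnq1ot1 was lower in cluster 8 in 4 of 4 and Peg10 in 3 of 4.

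**Figure D4:**
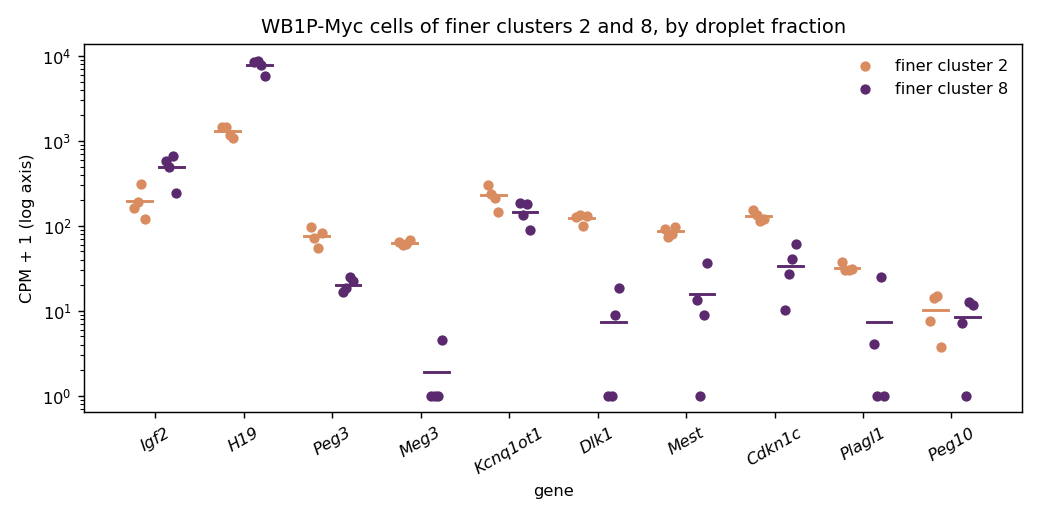
CPM + 1 on a log axis of the 10 genes in the WB1P-Myc cells of finer clusters 2 and 8, with a point per droplet fraction and a line at the pooled level. H19 is higher in cluster 8 in all 4 fractions (5842 CPM or more), while Dlk1, Meg3, Mest, Cdkn1c, Peg3 and Plagl1 are lower.

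Igf2 and H19 were also read in single WB1P-Myc cells. Of 3491 cells, 413 had UMIs of both, 105 of Igf2 alone, 1220 of H19 alone and 1753 of neither. H19 was found in 79.7% of cells with an Igf2 UMI and in 41.0% of cells without, a difference of 38.7 percentage points. The difference was 47.5, 41.8, 27.6 and 35.3 points in the 4 fractions (SD 8.58). In WB1P, 4 cells had an Igf2 UMI, and 2 of them had H19.

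Depth raises the detection of both genes, and cells with Igf2 were deeper, with a median of 3876 against 2179 UMIs. Within epithelial-like cells, H19 was found in 88.1% (83.9 to 91.5) of 302 Igf2-positive and 60.5% (56.0 to 64.9) of 486 Igf2-negative cells. The difference was 26.7 to 29.0 points in the 4 fractions, and 26.5, 23.9 and 25.7 points in the lowest, middle and highest of 3 equal groups by cell depth. In the 751 cells that could be thinned to 1500 UMIs the shares were 83.1% and 50.4%, and in all 788 cells thinned to 600 UMIs 80.2% and 39.3%. The association between the genes was therefore present at equal depth over the class as a whole. In the thinned cells, the mean H19 count was 3.00 UMIs in 579 cells with 0 Igf2 UMIs, 7.67 in 108 cells with 1, 12.2 in 37 cells with 2, and 14.9 in 27 cells with 3 or more. The class mixes finer clusters 2 and 8, which differ in H19 level and in the share of Igf2-positive cells. These mean counts were not read within them.

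The reverse share was lower, since many cells had H19 alone. In epithelial-like cells 47.5% (43.3 to 51.7) of the H19-positive cells had an Igf2 UMI. Within finer cluster 8, 129 cells had both, 80 H19 alone, 3 Igf2 alone and 7 neither, and H19 was found in 97.7% of Igf2-positive and 92.0% of Igf2-negative cells. In finer cluster 2 the shares were 81.0% and 53.5%. Thinned to 1500 UMIs, epithelial-like cells of cluster 8 had 95.3% (88.4 to 98.7) and 93.0% (86.8 to 96.9), with overlapping intervals. Those of cluster 2 had 71.3% (60.6 to 80.5) and 40.3% (35.7 to 44.9), which did not overlap. Schwann-like cells had 67.1% (55.1 to 77.7) and 43.1% (39.8 to 46.4), and 48.4% of 31 against 25.3% of 884 cells after thinning to 1500 UMIs (915 of 976 cells). Within finer clusters of this class the thinned intervals overlapped. The shares were 47.4% (24.4 to 71.1) of 19 and 26.5% (22.3 to 31.0) of 419 cells in the one named cartilage-like. In the one named Schwann-like they were 45.5% (16.7 to 76.6) of 11 and 24.2% (20.3 to 28.4) of 447 cells. In macrophage-like cells the shares were 45.7% and 25.2% as measured, 42.9% and 12.0% at 600 UMIs, and 9.09% (1 of 11 cells) and 19.4% at 1500 UMIs (341 of 691 cells), so that these few cells gave no stable direction.

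**Figure D5:**
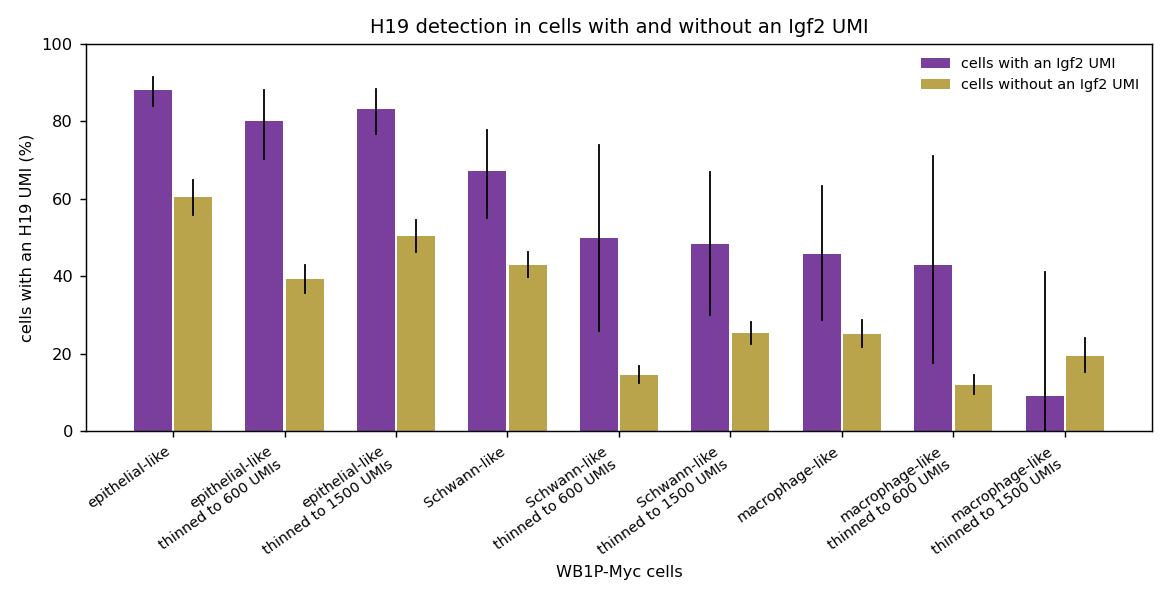
Share of WB1P-Myc cells with an H19 UMI among cells with and without an Igf2 UMI, by class and after thinning to equal depth, with bars from 0 and exact 95% binomial intervals. In epithelial-like cells the shares stay apart at all depths (88.1% and 60.5% as measured, 83.1% and 50.4% at 1500 UMIs), while the macrophage-like intervals are wide.

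Other pairs were read in the 751 epithelial-like cells thinned to 1500 UMIs. Meg3 was found in 16.9% (9.75 to 26.3) of cells with and 4.23% of cells without a Dlk1 UMI, the gene next to it. Cdkn1c was found in 24.7% (16.2 to 35) of cells with and 10.4% of cells without Dlk1, and in 14.9% of cells with and 8.23% of cells without H19. Kcnq1ot1 went the other way, with 16.8% (13.4 to 20.6) of H19-positive and 26.6% of H19-negative cells. Cdkn1c and Kcnq1ot1, which share a control region, gave 17.6% (10.4 to 27.0) of Cdkn1c-positive cells with Kcnq1ot1 and 21.4% of the others. Dlk1 was found in 12.2% (7.72 to 18.1) of Igf2-positive and 11.7% of Igf2-negative cells. The class mixes finer clusters with unlike shares, so these pairs were also read within them, an alternative added after seeing the data. Among 544 cells of finer cluster 2, Dlk1 was in 23.0% (14.6 to 33.2) of Igf2-positive and 14.9% (11.7 to 18.5) of Igf2-negative cells, with overlapping intervals, and among 200 cells of cluster 8 it was in 1 cell in all. In cluster 2, Meg3 was in 17.0% of cells with and 6.14% of cells without Dlk1, Cdkn1c in 23.9% and 13.8%, and, by H19, Cdkn1c in 24.0% and 8.39% and Kcnq1ot1 in 17.5% and 26.2%.

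The Igf2-positive epithelial-like cells differed in other genes as well. In 172 positive against 579 negative cells at 1500 UMIs, epithelial markers summed to 2.00 against 6.99 UMIs per cell and were lower in all 4 fractions. Wfdc18, a gene of this sum, had 0.256 against 2.97 UMIs per cell, and Krt14, another, 0.0523 against 0.397. The other markers of the sum are not given singly. Cartilage markers summed to 0.773 against 0.553 UMIs per cell and were higher in 4 of 4. Igf2-positive cells were also spread unevenly over the finer clusters, with an Igf2 UMI in 60.3% of the cells of cluster 8 and 27.1% of those of cluster 2, which differed in these markers as given above, and the contrast was therefore repeated within them. In cluster 2, epithelial markers summed to 2.00 UMIs in 87 positive against 8.38 in 457 negative cells, lower in 4 of 4 fractions, while in cluster 8 they summed to 2.00 in 85 positive against 1.74 in 115 negative cells, higher in 3 of 4. Cartilage markers were higher in the positive cells in 2 of 4 fractions of either cluster. The summed cell cycle genes were 6.30 against 5.26 UMIs per cell and higher in 4 of 4 fractions over the class, and in 3 of 4 within either finer cluster, at 6.03 against 4.81 in cluster 2 and 6.58 in both groups of cluster 8. Genes were ranked that had enough UMIs and the same direction in every fraction. Among 352 genes, the highest such ratios included those of H19 (log2 1.70) and Col1a2 (1.27), a chain of collagen I. Cnp (1.27), a myelin enzyme, and Sox11 (1.26), an embryonic transcription factor, were also among them. The lowest were those of Car6 (-3.56), Wfdc18 (-3.54), of the whey acidic protein family, Ly6d (-3.36), Krt14 (-2.92), a basal keratin, and Tm4sf1 (-2.24). These gene ratios were read over the whole class and not within the finer clusters. Krt14 and Wfdc18 were among the top genes of cluster 2, and Sox11 and H19 among those of cluster 8. In Schwann-like cells, 31 positive cells had 10.2 UMIs of cartilage markers each against 5.05 in 884 negative cells, higher in 4 of 4 fractions. They had 2.65 against 5.11 UMIs of Schwann markers, higher in 1 of 4 fractions, and 0.774 against 0.361 UMIs of epithelial markers, higher in 3 of 4. Finer clusters split this class too, 470 of 976 cells falling in one named Schwann-like and 487 in one named cartilage-like. In the latter, cartilage markers summed to 15.1 UMIs in 19 positive against 8.09 in 419 negative cells, higher in 3 of 4 fractions, and in the former to 2.45 in 11 against 2.35 in 447 cells, higher in 2 of 4. Doublets were not called, and their part was not tested. The genes with the highest ratios there were Clu, Fibin, H19, Col11a1 and Loxl2, and those with the lowest, among them Polr2e, Josd2, Trmt112 and Wfdc12, had 1 UMI each in the positive cells.

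The levels of other genes were compared with Igf2 and H19 over 32 sums of cells by fraction and class, as Pearson's r of log2(CPM + 10). The sums share libraries and classes, so that r is only a description. Of 7922 genes, those most like Igf2 were Bex1 (0.92), Nap1l1 (0.90), Cluh (0.90), Zdbf2 (0.90), itself imprinted, and Kcns1 (0.89). Those most like H19 were Tsr1 (0.87), Ttll12 (0.87), Nap1l1 (0.86), Gemin5 (0.85) and Nme2 (0.85), and Igf2 followed as the sixth at 0.84.

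Other imprinted genes were taken from a list of 41, of which 26 had enough UMIs in all kept cells. Of these, 7 were higher in WB1P-Myc, where 10.7% of all genes were, and 0 lower, where 5.53% were, with a median log2 ratio of 0.26 beside 0.04 over all genes. The 7 were Grb10, an adaptor of insulin-like growth factor receptors (18.2 and 86.2 CPM), Slc38a4, an amino acid transporter (0.299 and 12.4 CPM), Zdbf2 (0 and 23.3 CPM), Ppp1r9a (8.36 and 68.6 CPM), Zrsr1 (5.08 and 24.7 CPM), Ascl2 (0 and 6.11 CPM) and Ndn (7.77 and 17.1 CPM). In epithelial-like cells 8 of 21 were higher (11.6% of all genes) and 1 lower (11.7%). The higher ones had Phlda2 (31.2 and 66.1 CPM) and Gatm (14.9 and 48.7 CPM) in place of Ndn, and the lower one was Cd81, at 484 and 196 CPM.

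The list of genes around Igf2 held both directions. It includes another ligand, receptors, binding proteins and proteins that bind messenger RNA. Of 18 genes of the insulin-like growth factor axis, 4 were higher and 3 lower in all kept cells, beside 10.7% and 5.53% of all genes, with a median log2 ratio of -0.40. The higher ones were Grb10 and the 3 messenger RNA binding proteins named for Igf2, Igf2bp1 (0.896 and 19.1 CPM), Igf2bp2 (8.36 and 31.6 CPM) and Igf2bp3 (0.597 and 16 CPM). The lower ones were the insulin receptor Insr (32.6 and 15.9 CPM), its substrate Irs2 (91.1 and 16.3 CPM) and the binding protein Igfbp5 (231 and 57.3 CPM). In epithelial-like cells 5 of 14 were higher, now with Igfbp2 (32.7 and 116 CPM), and 4 lower, Irs2 at 117 and 9.65 CPM, Insr at 39.2 and 11.3 CPM, Igfbp7, a binding protein, at 413 and 89.0 CPM and Htra1, a protease, at 47.1 and 19.5 CPM, beside 11.6% and 11.7% of all genes. The receptors Igf1r (30.2 and 21 CPM) and Igf2r (68.4 and 58.9 CPM), which clears Igf2, were not among either.

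Of 14 factors that maintain imprints or act on these genes, 3 were higher (Dnmt3b, a DNA methyltransferase, 7.47 and 18.2 CPM, Suz12, a Polycomb subunit, 52.9 and 141 CPM, and Lin28b, 0 and 4.27 CPM) and 1 was lower (Hmga2, 58.3 and 17.5 CPM) in WB1P-Myc, beside 10.7% and 5.53% of all genes, at a median log2 ratio of 0.35. In epithelial-like cells 3 of 13 were higher, Dnmt3b, Suz12 and Myc, and Hmga2 was lower, beside 11.6% and 11.7% of all genes. Of 22 cell cycle genes, Top2a alone was higher in all kept cells (167 and 621 CPM), 1 of 22 beside 10.7% of all genes, at a list median of 0.45, and Top2a, Mcm5 and Ccnd2 in epithelial-like cells, beside 11.6%. Among fibroblast-like cells 0 of 11 other imprinted genes and 0 of 11 genes of the insulin-like growth factor axis were higher or lower, beside 1.87% and 1.13% of all genes. Of 11 cell cycle genes there, 1 was higher, Top2a (101 and 218 CPM), and 0 were lower. The median log2 ratio of that list was 0.62 beside 0.06 over all genes.

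The MiSeq tables of the same fractions, which hold mostly other barcodes (423 WB1P and 791 WB1P-Myc kept cells), gave a second reading. Igf2 had 1 UMI in WB1P and 89.8, 50.9, 94.5 and 60.6 CPM in WB1P-Myc. H19 had 105, 150.4, 56.2 and 72.2 CPM in WB1P and 1565, 1361, 1604 and 1168 CPM in WB1P-Myc. Of 7 members with enough UMIs, these 2 were higher, against 9.94% of 6437 genes. Peg3, at 94.3 and 39.5 CPM, was lower, against 8.78% of genes. Kcnq1ot1 had 138 and 192 CPM with overlapping fractions, and Cdkn1c 59.5 and 70.5 CPM, so that neither was past 2-fold there. Meg3 had 194 and 72.9 CPM, again with fractions that overlapped.

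As Myc binds E-box motifs, the letters CACGTG (its own reverse complement, so both strands are covered) were searched in promoter windows of 300 bases, from 250 before to 50 after a start (RefSeq, GRCm38.p6). Of the 10 genes 7 had a total of 13 windows, and 1 window held the motif, against 2349 of 32851 windows (7.15%) of all genes. H19, Cdkn1c and Peg10 were not searched. The share over the 13 windows (7.69%) was thus near that of all windows. The window with the motif was that of Plagl1 and is shown on the plus strand with the motif in capitals. A match is no evidence of binding, and Myc binding was not measured.
Plagl1 (chr10:13090582-13090881): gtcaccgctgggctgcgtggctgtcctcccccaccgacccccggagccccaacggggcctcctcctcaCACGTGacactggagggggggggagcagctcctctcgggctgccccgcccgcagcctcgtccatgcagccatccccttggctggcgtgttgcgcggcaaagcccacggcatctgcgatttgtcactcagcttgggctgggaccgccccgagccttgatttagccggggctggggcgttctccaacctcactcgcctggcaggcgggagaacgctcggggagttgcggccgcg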

How the data were processed

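Drop-seq libraries of 4 droplet fractions per model were sequenced on a HiSeq2500 and a MiSeq. The authors made the deposited tables of raw UMI counts per gene symbol and cell barcode with dropseq-tools and analysed them in scanpy; the labels name mm10 as the build, and the aligner and the use of strand are not given in the sources used here. Each table lists 1000 barcodes. A pooled table of the series was not used.

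HiSeq barcodes with 450 to 4000 genes and under 20% mitochondrial UMIs were kept. Kept fractions held 94408 to 3365270 UMIs. Of the barcodes in these tables, 3 were listed in more than 1 table. Counts were scaled to 10000 per cell, log-transformed and clustered (30 principal components, 20 neighbours, Leiden resolution 0.3, or 0.6 for finer clusters) in scanpy 1.11.5. Clusters were named from fixed marker lists: 3 markers of a type had to lead, each with UMIs in 10% or more of the cluster and a mean 2-fold or more above that elsewhere. Doublets were not called; the sort had kept singlets.

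UMIs were pooled over cells and divided by all UMIs (CPM). Levels have exact Poisson, shares exact binomial (Clopper-Pearson) and ratios exact conditional binomial intervals, all at 95% and for counting error only. In ratios, a level of 0 UMIs was replaced by a floor of 3 UMIs. The rule for counting genes was tried on Poisson counts simulated from a pooled profile, with fold changes well past the 2-fold limit. The simulated fractions differed by counting error only. The trial therefore cannot show how the rule acts on UMIs gathered in few cells or on ratios near 2-fold. edgeR 4.0.16 and DESeq2 1.42.0 gave other scaling factors only. All 10 members are named; of each list, those past the rule; of the likeness and Igf2-positive comparisons, the 5 highest and, for the latter, the 5 lowest, less a few genes that are not reported here. Members, lists and rules were chosen with earlier results of these data known. No p-value was computed, as each model was taken as 1 sample: the study names 2 mice per model, but the labels do not tie fractions to mice, and whether the mice were pooled is not stated.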

Additional observations from a re-analysis of the deposited data

Results flagged for a closer look

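Mest had opposite directions in 2 classes, with a log2 ratio of WB1P-Myc over WB1P of 1.92 in epithelial-like and -2.78 in fibroblast-like cells, in which no fraction of one model overlapped the other's. The difference between the classes was not tested. Adipocyte markers summed to 204 CPM in WB1P and 2.07 CPM in WB1P-Myc fibroblast-like cells, and their part was not tested either.

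Barcodes outside the filters, which entered only the alternatives with a minimum of 200 genes or with no maximum, also held the members. In WB1P-Myc barcodes under 450 genes, Igf2 had 112 CPM, H19 972 CPM and Kcnq1ot1 1428 CPM, against 3.87, 74.9 and 191 CPM in those of WB1P. In WB1P-Myc barcodes over 4000 genes, Igf2 had 80.3 CPM, H19 1032 CPM, Meg3 34.7 CPM, Kcnq1ot1 153 CPM, Dlk1 14.8 CPM, Plagl1 9.61 CPM and Peg10 13.6 CPM. The WB1P barcodes over 4000 genes had 0.626, 10.0, 3.76, 55.8, 0.626, 0 and 0 CPM of these genes. Igf2 and H19 were thus measured on both sides of the limits of 450 and 4000 genes. Of 58 groups of 4 fractions, 0 had a fraction far enough from the others to stand out.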

How the results depend on the processing

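The Igf2 and H19 ratios and the co-detection difference kept their direction under every alternative run. The Igf2 log2 ratio was 6.15 to 7.13 when single fractions were left out. The H19 log2 ratio was 2.93 to 3.43 then, 3.85 in the MiSeq tables and 3.55 with no maximum of genes. The count of members past 2-fold in either direction, 6 higher and 0 lower, was 5 to 7 with single fractions left out and 3 in the MiSeq tables, 2 higher (Igf2 and H19) and 1 lower (Peg3). The co-detection difference was 35.4 to 41.7 points with single fractions left out, 50.9 in the MiSeq tables and 50.7 when all cells were thinned to 600 UMIs. Chosen after seeing the data, leaving out the unnamed cluster gave 5 members, and clustering on all genes 8 in epithelial-like cells. The clustering on all genes let the members themselves shape that class. Shares over all genes are not given for these alternatives or with single fractions left out. Of 548 other comparisons of class levels, 96 moved by more than the spread of fractions or the counting interval. These were 26 of 42 in the MiSeq tables, 16 of 46 with clustering on the 2000 most variable genes, 14 of 46 with free RNA subtracted, and others. Of 178 comparisons of ratios, 80 of them with single fractions left out, 25 moved and 1 reversed. In the MiSeq tables, the separate reading, 8 of 10 moved. The ratio that reversed was that of Kcnq1ot1 in epithelial-like cells, at -0.36 with free RNA subtracted at the assumed 10%. That share took off more Meg3 than macrophage-like and Schwann-like cells of WB1P-Myc held, so the reversal cannot decide the direction. The cause of the reversal was not tested. No paired analysis was possible because each model is 1 sample and no result comes from a test; finer clusters of the same fractions were also read fraction by fraction. A model without replicates cannot show how far tumours of 1 genotype differ, and the lowest levels rest on few UMIs.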

Other observations

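The same likeness over the 32 sums by fraction and class, as Pearson's r of log2(CPM + 10), was read for the other members after the values of Igf2 and H19 were seen, as a description. The genes most like Meg3 among 7922 were Col1a2 (0.95), Mrc2 (0.95), Col1a1 (0.95), Fstl1 (0.95) and Rian (0.95). Col1a1 and Col1a2 encode the chains of collagen I and were among the fibroblast markers, and Rian is the noncoding RNA gene that follows Meg3 in the same imprinted cluster. Of the other members, Plagl1 was the most like Meg3 (0.83), while Dlk1, the neighbour of Meg3, had 0.20. The genes most like Peg3 included Cald1 (0.90), which binds actin filaments, Rbfox2 (0.88), a splicing factor, Hes1 (0.88), a target of Notch, and Ptn (0.88). Igf2 and Dlk1 had 0.79 and H19 and Cdkn1c 0.71.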
